A study of Apis mellifera with 18 samples.

Results

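The genes for GABA, glutamate and histamine gated channels were followed in the brains of worker honey bees (Apis mellifera) that were fed the neonicotinoid dinotefuran or sucrose solution alone. The members were chosen by name, as every feature whose gene name was Rdl, Grd, Lcch3, GluCl, HisCl1, HisCl2 or pHCl, ignoring case and hyphens. Features were found under 5 of these 7 names, and no feature was named Rdl or HisCl2. The 12 members comprised 5 genes (GluCl, pHCl, LCCH3, Grd and Hiscl1) and 7 assembled long noncoding RNA (lncRNA) transcripts listed under 3 of these genes, out of 16699 features (9939 genes and 6760 lncRNA transcripts).

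Newly emerged bees from 3 colonies were caged in darkness and fed 0.01 mg/L dinotefuran in sucrose solution (DT) or the same solution without it (C), and were sampled at 1, 5 and 10 d. Control and treated bees are named by age as C_1d, C_5d, C_10d, DT_1d, DT_5d and DT_10d. Each of these 6 groups was measured in 3 libraries made from pooled brains. Nothing in the descriptions says whether libraries of a group came from separate cages or colonies, so the p-values measure the spread between these 18 libraries, which may be technical. Bees of all groups were caged and sugar-fed, so none of the groups represents hive bees of the same age.

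GABA is the main inhibitory transmitter of the insect brain, and glutamate and histamine also open chloride channels in insects, which tends to silence the receiving neuron. The subunits of these channels belong to the cysteine-loop receptor superfamily, together with the nicotinic acetylcholine receptors on which dinotefuran acts, and a channel is built from 5 subunits. GluCl encodes the glutamate gated chloride channel, a target of avermectins. Hiscl1 encodes a histamine gated chloride channel, which in Drosophila works in the visual system, where photoreceptors release histamine. LCCH3 and Grd are GABA receptor-like subunits, and in Drosophila both together form a GABA gated channel that passes cations rather than chloride, so that a chloride current cannot be assumed for every member. The pHCl channel of Drosophila is a chloride channel opened by alkaline pH.

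In the Amel_HAv3.1 annotation of RefSeq, GluCl lies on linkage group 14 from 5177026 to 5214539 with 11 annotated transcripts. The pHCl gene lies on linkage group 15 from 7474679 to 7550203 with 28 transcripts, and LCCH3 on linkage group 9 from 1324939 to 1338281 with 7 transcripts. Grd lies on linkage group 1 from 6428662 to 6469994 with 4 transcripts, and Hiscl1 on linkage group 2 from 6409564 to 6416225 with 2 transcripts. The values were deposited per gene, so the transcripts of a gene could not be separated, and each value covers exons of all of them.

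The deposited unit was FPKM, a fragment count divided by the length of the transcribed sequence and by the size of the library, so that levels can be compared between genes. A factor common to most genes separated the libraries. The median ratio of a library to the geometric mean of all libraries, over the 9119 genes above 0 in every library, ran from 0.539 to 1.81, and the DT libraries of 1 and 5 d were low. Each comparison is therefore given on FPKM as deposited and on FPKM divided by this ratio, called scaled FPKM below. The 10 highest genes held 64.6% of the summed FPKM of genes in DT_1d replicate 1, which had the lowest ratio. They held 36.8% in C_5d replicate 3, which had the highest. The part of this share in the ratios was not tested. Sequencing depth cannot be read from FPKM. As a check of the tissue label, the 4 of 8 neuronal marker genes that were found (Syt1, brp, para and CaMKII) summed to 15.99 to 102 FPKM. Of 5 glial marker symbols only that of Eaat-2 was matched, and it lay between 11.3 and 53.9 FPKM. Glutamine synthetase, listed among the glial symbols as Gs, was present under the name GlnS at 253 to 750 FPKM but was not matched there. Genes of the hypopharyngeal gland, a head gland that makes royal jelly, summed to 1319 to 57129 FPKM over the 4 of 7 found, and 5 fat body genes to 7.77 to 48.0 FPKM, so that genes typical of tissue outside the brain were read in the libraries. The lncRNA values of DT_1d replicate 1 equalled those of DT_10d replicate 1 for all 6760 transcripts, 5002 of them above 0. They were left out of DT_1d and kept in DT_10d, which leaves 17 libraries for lncRNAs and 2 in DT_1d. Which of the 2 libraries they belong to is not known, so each lncRNA result with DT_10d rests on this choice.

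Grd was the member with the highest FPKM in 18 of 18 libraries, and the members kept nearly the same order across libraries. Grd ran from 6.27 to 38.9 FPKM with a median of 23.6, and in a median library 84.9% of all genes lay below it. GluCl ran from 2.47 to 14.1 FPKM with a median of 6.95. The pHCl gene was close to it, from 4.06 to 9.41 FPKM with a median of 5.00. LCCH3 ran from 1.39 to 5.96 FPKM with a median of 2.22, and Hiscl1 from 1.02 to 6.31 FPKM with a median of 1.95. Hiscl1 was the lowest of the 5 genes in 16 libraries and LCCH3 in 2. Which of GluCl and pHCl stood second changed with the group, as described below.

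**Figure D1:**
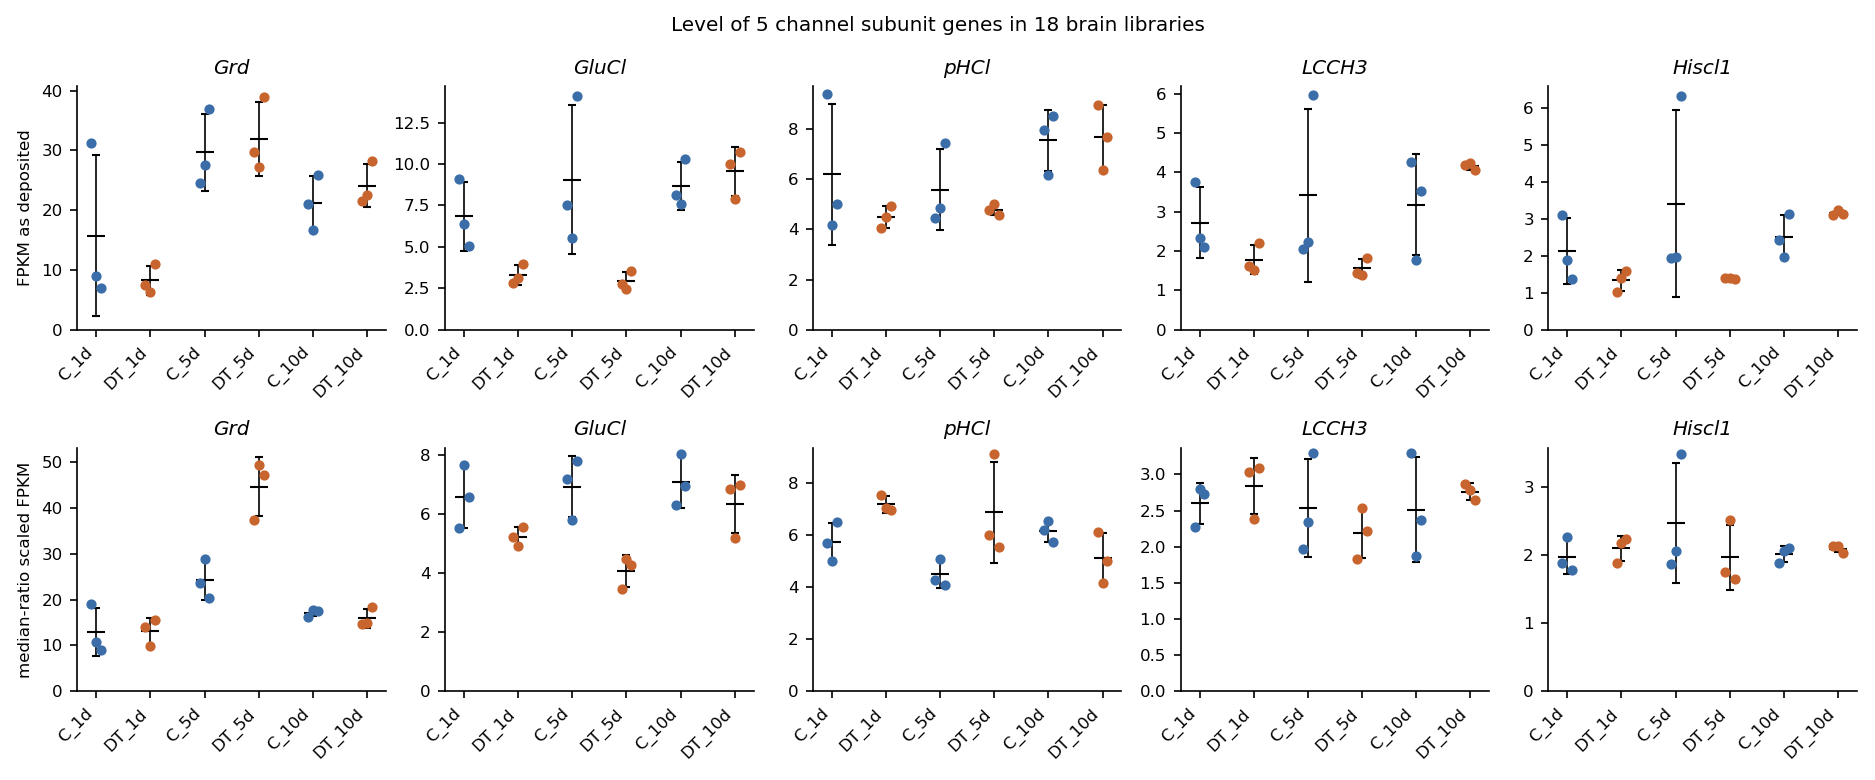
FPKM of the 5 genes in each library (points, 3 per group; blue C, orange DT), as deposited in the upper row and divided by the library's median ratio in the lower row, with the mean and SD of each group in black. In scaled FPKM, Grd stood highest in DT_5d (37.4 to 49.4) and GluCl lowest in DT_5d (3.47 to 4.49).

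The comparison of DT with C at each age asks whether dinotefuran feeding moved the transcripts of these channels. The C and DT labels were taken as given. A swap of these labels at 5 d could not be told from the values, and it would turn the direction of every DT_5d against C_5d difference. GluCl showed the largest difference among the 5 genes on deposited values, and it lay at 5 d. GluCl was at 2.76, 2.47 and 3.53 FPKM in DT_5d and at 7.52, 5.52 and 14.1 FPKM in C_5d. The lowest control library was above the highest treated one, and the control libraries spread more widely than the treated ones. In scaled FPKM, GluCl was at 3.47, 4.49 and 4.27 in DT_5d and at 7.21, 5.79 and 7.79 in C_5d, again without overlap.

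The log2 fold change of GluCl, on the log2(FPKM + 0.1) scale, was -1.51 (SE 0.33) at 5 d on deposited values, with an adjusted p of 0.0641 (limma, Benjamini-Hochberg over 13730 features), so it missed the threshold of 0.05. The median gene was lower by -0.73 in this comparison, and 2.66% of the 9352 genes tested had a lower fold change than GluCl. On scaled values the log2 fold change was -0.75 (SE 0.16, 95% interval -1.10 to -0.40) with an adjusted p of 0.0448, which passed the p threshold but not the log2 fold limit of 1 that a call also required. The exact permutation test on 3 against 3 libraries gave p = 0.1, two-sided, the smallest it can give. Over 24 settings the value ran from -1.80 to -0.64 with adjusted p between 0.0269 and 0.336, and GluCl was called in 3 of them. One of these left out C_5d replicate 2 (-1.80, adjusted p 0.0269).

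None of the 11 members tested was called by limma between DT_5d and C_5d on deposited values, against 0.189% of all features tested. At an unadjusted p under 0.05, 3 members were lower and 2 higher in DT_5d, against 35.7% and 1.17% of all features. On these values the libraries of 3 members lay wholly lower in DT_5d (GluCl, LCCH3 and Hiscl1), which 42.1% of all features did, a larger share than that of the members. The lncRNA TCONS_00006937 lay wholly higher, against 1.87% of all features. On scaled values pHCl, Grd and 3 lncRNAs lay wholly higher, against 12.7% of all features, and GluCl wholly lower, against 10.3%. The 3 were TCONS_00006937 and TCONS_00006939, listed under Grd, and TCONS_00083135, listed under pHCl. TCONS_00083135 was near the floor and separated by a small margin. Its lowest scaled value in DT_5d was 0.0483 and its highest in C_5d 0.0460, both below the pseudocount of 0.1. TCONS_00001420 was wholly higher on both scales as well, but it reached the minimum for testing only through DT_5d and is left out of these overlap counts. It is included in the counts at an unadjusted p, here and below. Its entry through DT_5d fixed its direction in counts that involve that group, which are therefore given as a description only. Hiscl1 was at 1.39, 1.39 and 1.36 FPKM in DT_5d and at 1.95, 1.96 and 6.31 FPKM in C_5d. Its log2 fold change was -1.02 (adjusted p 0.0901) on deposited and -0.28 (adjusted p 0.493) on scaled values. LCCH3 was at 1.45, 1.39 and 1.84 FPKM in DT_5d and at 2.05, 2.24 and 5.96 FPKM in C_5d, with log2 fold changes of -0.92 (adjusted p 0.108) and -0.18 (adjusted p 0.685). For both genes C_5d replicate 3, the library with the highest median ratio, was far above the other controls, and their DT and C libraries overlapped once scaled.

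The pHCl gene differed from GluCl in this comparison. It was at 4.77, 5.01 and 4.57 FPKM in DT_5d and at 4.44, 4.86 and 7.43 FPKM in C_5d, overlapping on deposited values (log2 fold change -0.18, adjusted p 0.672). In scaled FPKM it was at 6.01, 9.10 and 5.53 in DT_5d and at 4.26, 5.09 and 4.10 in C_5d, with a log2 fold change of 0.58 (SE 0.18, adjusted p 0.108), so its sign turned with the scaling and it passed neither test.

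**Figure D2:**
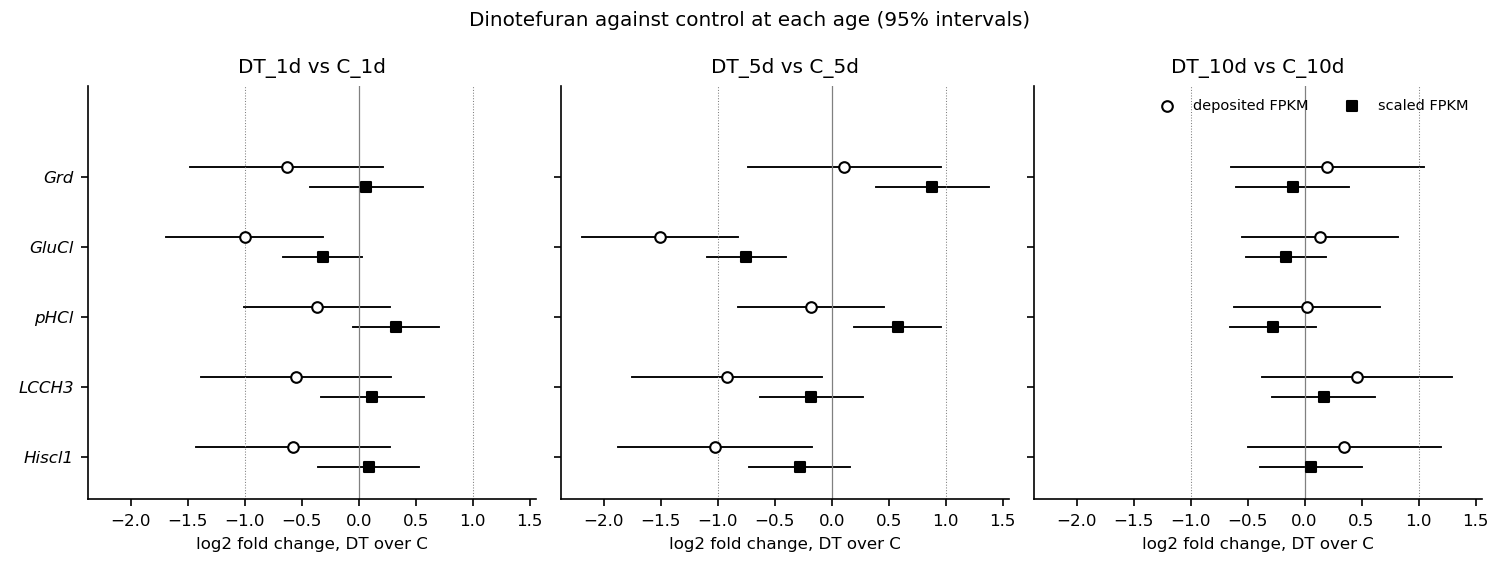
Log2 fold change of DT over C for the 5 genes at 1, 5 and 10 d, with 95% intervals (lines), from deposited (open circles) and scaled FPKM (filled squares); dotted lines mark the log2 fold limit of 1 in either direction. GluCl lay lowest at 5 d on both scales, at -1.51 and -0.75, and Grd highest at 5 d, at 0.11 and 0.88.

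The ratio of a pair of genes within a library does not depend on a factor common to that library. Ratios were not among the planned tests, and the share of other gene pairs without overlap was not computed. The pHCl to GluCl ratio of FPKM was 1.44, 1.43 and 1.25 in DT_1d and 1.73, 2.03 and 1.29 in DT_5d. It was 1.03, 0.653 and 0.987 in C_1d and 0.591, 0.879 and 0.526 in C_5d. The treated libraries were thus above every control library of the same age at 1 and 5 d. This ratio restates the values of pHCl and GluCl and is no further test. At 10 d the ratio was 0.804 ± 0.088 (SD, n = 3) in DT_10d and 0.872 ± 0.0931 in C_10d, and the groups overlapped. The fold between DT and C in this ratio was 1.57 at 1 d, 2.55 at 5 d and 0.922 at 10 d, with exact permutation p of 0.1, 0.1 and 0.4 (two-sided, smallest possible 0.1). GluCl exceeded pHCl in 8 of 9 C libraries and in 3 of 9 DT libraries, those 3 being DT_10d.

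Beside these values, single markers of other cells differed between the same groups, in both directions within a list. Of the 4 neuronal markers 3 were lower in DT_5d on scaled values and 1 higher, and their sum was 31.4 to 38.7 scaled FPKM in DT_5d and 38.1 to 56.2 in C_5d. The 4 opsins found of 9 photoreceptor and eye genes summed to 291 to 411 in DT_5d and 461 to 550 in C_5d, a sum carried by Lop1 (292 ± 52.2 against 439 ± 47.5 scaled FPKM, SD, n = 3). Blop (14.1 against 11.2) and Lop2 (11.8 against 9.24) had higher means in DT_5d, so that 2 opsins were higher and 2 lower, with a median log2 fold change of -0.0054. The gland sum was 42560 to 71928 scaled FPKM in DT_5d and 12535 to 13271 in C_5d, with 3 royal jelly protein genes higher in DT_5d, such as Mrjp1 (33627 against 3562), and Hbg3, an alpha-glucosidase gene, lower (3658 against 8056). None of these markers was called at 5 d on either scale. The part of these differences in the values of GluCl and of the other members was not tested, and in bulk libraries fewer cells of a type cannot be told apart from less RNA per cell.

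Of the 5 genes, Grd varied most with age, and it stood highest at 5 d. In scaled FPKM Grd was at 18.9, 10.8 and 9.09 in C_1d, at 23.6, 28.9 and 20.3 in C_5d and at 16.2, 17.6 and 17.4 in C_10d. The treated libraries were at 14.02, 9.80 and 15.5 in DT_1d, at 37.4, 49.4 and 47.2 in DT_5d and at 14.7, 14.8 and 18.4 in DT_10d. The order of the group means was DT_5d (44.7), C_5d (24.3), C_10d (17.1), DT_10d (15.98), DT_1d (13.1) and C_1d (12.9). DT_5d and C_5d did not overlap any group below them, whereas the libraries of C_10d, DT_10d, DT_1d and C_1d overlapped with their neighbours in this order.

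Between DT_1d and DT_5d, Grd rose on both scales, and it was the only one of the 5 genes to be called. Its log2 fold change was 1.96 (SE 0.40, adjusted p 0.0218) on deposited FPKM, which were 7.55, 6.27 and 10.99 in DT_1d and 29.7, 27.2 and 38.9 in DT_5d. On scaled values it was 1.78 (SE 0.23, adjusted p 0.000895), and 99.4% of all genes had a lower fold change. On deposited values the call was lost without any 1 of the 6 libraries (adjusted p 0.0579 to 0.156, log2 fold change 1.78 to 2.18), and on scaled values it was held without each of them (adjusted p 0.00311 to 0.00812). The members called higher in DT_5d than in DT_1d, on either scale, were Grd and the lncRNAs TCONS_00001420, TCONS_00006937 and TCONS_00006939 of Grd. TCONS_00001420 reached the minimum for testing only through DT_5d and had to be higher there. Of the 10 remaining members 3 were called higher, where 0.524% of all features were on deposited and 2.58% on scaled values, and none lower. These 3 were Grd and lncRNAs listed under its name, whose reads may not be separate from those of the gene. They are therefore not independent members, and the count says nothing about the other genes. On deposited values 0 to 2 of all 11 were called without 1 library.

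In the control bees Grd was not called for the same step. The log2 fold change of Grd from C_1d to C_5d was 1.22 (SE 0.40, adjusted p 0.377) on deposited and 0.96 (SE 0.23, adjusted p 0.0706) on scaled values. No member was called by limma in this comparison, against 0.0146% of all features on deposited and 0.218% on scaled values. An unadjusted p under 0.05 was reached by 4 and 3 members, all with a higher level in C_5d. Of all features 5.63% and 8.56% did so. Without C_1d replicate 1, in which Grd was at 31.2 FPKM against 8.92 and 6.998 in the other C_1d libraries, Grd was called on deposited (1.87, adjusted p 0.000425) and on scaled values (1.27, adjusted p 0.000443), and the members called higher were 4 (Grd and the lncRNAs TCONS_00006937, TCONS_00006938 and TCONS_00006939) and 3 (the same without TCONS_00006937). In these fits 8.02% and 2.86% of all features were called higher. The members called were again Grd and lncRNAs listed under its name, which are not independent of each other. C_1d replicate 1 had the highest opsin sum of its group (692 against 289 and 272 scaled FPKM). Its gland genes went both ways, with Mrjp1 at 2363 FPKM against 25364 and 30577, and Hbg3 at 8614 FPKM against 71.5 and 49.6. The part of these markers in the result was not tested. From C_1d to C_10d no member was called either, against 0.51% of all features on deposited and 0.954% on scaled values. On each scale 2 were higher in C_10d at an unadjusted p under 0.05, against 5.94% and 8.75% of all features. Without C_1d replicate 1, 3 were called higher on deposited values (Grd and the lncRNAs TCONS_00006938 and TCONS_00006939), against 10.3% of all features in that fit. On scaled values those 2 lncRNAs were called, against 3.31%. Both are listed under Grd.

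Grd was also above the controls at 5 d once the libraries were scaled. Its log2 fold change from C_5d to DT_5d was 0.88 (SE 0.23, 95% interval 0.39 to 1.38, adjusted p 0.0724) on scaled values, without overlap between the libraries, and 96.4% of genes had a lower value. On deposited FPKM it was 0.11 (SE 0.40, adjusted p 0.856). The value ranged from -0.04 to 1.02 over 24 settings and was called in none. Whether the treatment effect on Grd differed between 5 and 1 d, a comparison added after seeing the data, was not settled by the interaction test, which gave 0.82 (adjusted p 0.545) on scaled and 0.74 (adjusted p 1) on deposited values. In that test no member was called by limma, and 0% of all features were called on either scale. An unadjusted p under 0.05 with a positive value was reached by 1 member on deposited and 4 on scaled values, Grd among the latter. Of all features 1.3% and 4.76% did so. TCONS_00001420 was among the members tested, so these counts are a description only.

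The ratios of Grd to GluCl and to LCCH3 were highest in DT_5d without any scaling. Grd and GluCl had the highest and lowest log2 fold changes of the 5 genes at 5 d. Their ratio restates those values and is no further test. The Grd to GluCl ratio of FPKM was 10.79, 10.99 and 11.04 in DT_5d, and 3.27, 4.99 and 2.61 in C_5d. Its means in the remaining groups lay between 2.07 and 2.54. DT_5d had 3.13 times the ratio of C_5d (exact permutation p = 0.1, two-sided, the smallest possible), whereas the folds at 1 and 10 d were 1.31 and 1.04 with overlapping libraries (p = 0.4 and 0.7). The Grd to LCCH3 ratio was 20.4 ± 0.872 (SD, n = 3) in DT_5d, 10.2 ± 3.45 in C_5d and between 4.58 and 7.23 in the means of the remaining groups. Grd therefore made up 74.8% ± 2.52 of the summed FPKM of the 5 genes in DT_5d, against 59.4% ± 6.72 in C_5d and 42.3% to 49.5% in the group means elsewhere. LCCH3 and Hiscl1, in contrast, kept a ratio with group means of 1.05 to 1.36 throughout, and DT and C libraries overlapped in it at each age.

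**Figure D3:**
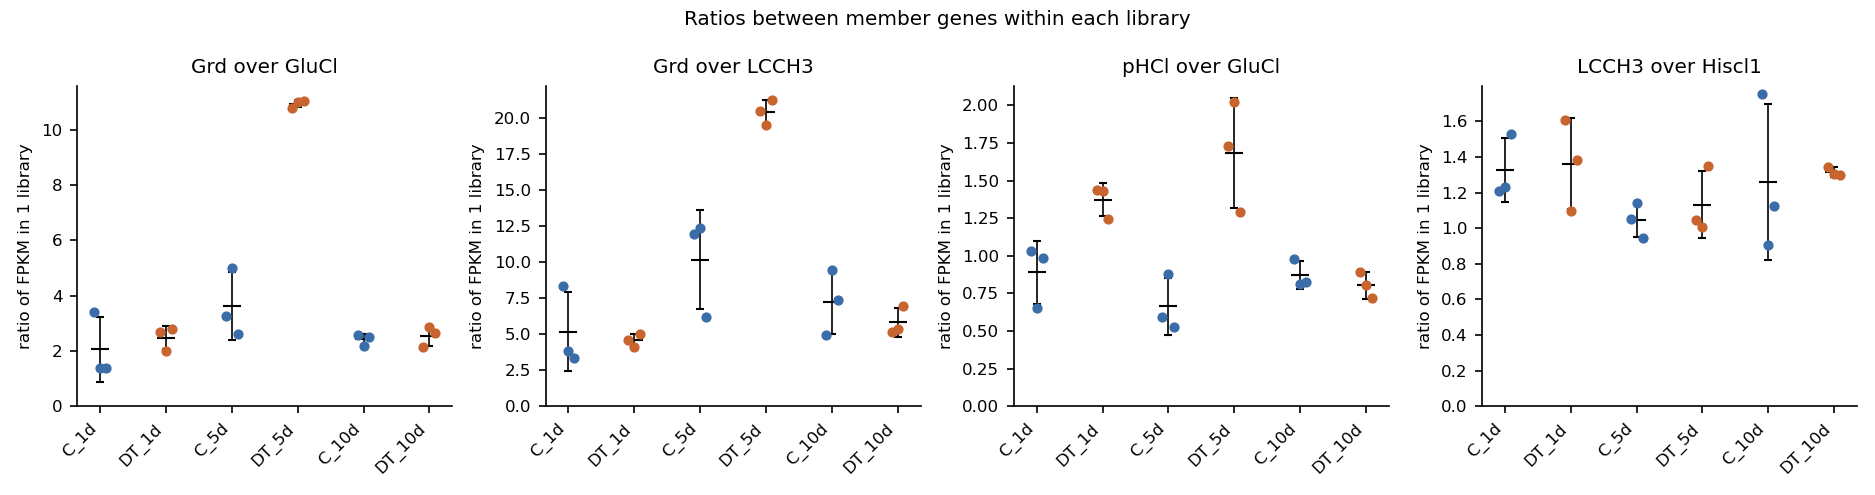
Ratios of FPKM between pairs of genes within each library (points, 3 per group; blue C, orange DT), with the mean and SD in black. The Grd to GluCl ratio reached 10.79 to 11.04 in DT_5d and no more than 4.99 in other libraries, the pHCl to GluCl ratio exceeded the controls of the same age at 1 and 5 d, and the LCCH3 to Hiscl1 ratio overlapped between DT and C at each age.

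Gland genes varied across the same groups. Mrjp1 had group means of 23909, 47304, 3562, 33627, 27.1 and 439 scaled FPKM in C_1d, DT_1d, C_5d, DT_5d, C_10d and DT_10d. Hbg3 had group means of 1790, 452, 8056, 3658, 6123 and 581 scaled FPKM in the same order. Their part in the values of Grd was not tested.

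Of the 7 lncRNA transcripts, 4 were listed under Grd, 2 under pHCl and 1 under GluCl. Their positions were not used here, and the library kit does not mark the strand, so reads of a transcript that overlaps exons of its gene on either strand could not be told apart from reads of the gene. TCONS_00006937 was the most abundant of the Grd transcripts. In scaled FPKM its 3 libraries ran from 7.10 to 16.7 with a median of 14.3 in DT_5d and from 2.01 to 4.33 with a median of 3.23 in C_5d. The other groups lay between 0.945 and 2.91. It rose from DT_1d (2 libraries, 2.01 and 2.14) to DT_5d with a log2 fold change of 2.52 (adjusted p 0.0334) on deposited and 2.47 (adjusted p 0.00623) on scaled values. This call was made in 16 of 23 settings.

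Against C_5d, TCONS_00006937 was higher in DT_5d by 1.18 on the log2 scale (adjusted p 0.103) on deposited values and by 1.93 (adjusted p 0.0434) on scaled values, where it was called. The scaled call was lost without C_5d replicate 1, C_5d replicate 3, DT_5d replicate 2 or DT_5d replicate 3, and the transcript was called in 3 of 23 settings with adjusted p from 0.0322 to 0.374. On scaled values it was the 1 of 10 members called higher in DT_5d, where 0.51% of all features were, leaving out TCONS_00001420, and none was called lower, against 0.117%.

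TCONS_00001420 was also called on scaled values. In FPKM it ran from 0.174 to 0.237 in DT_5d, was listed at 0 in both DT_1d libraries and did not exceed 0.0654 elsewhere. It met the minimum of 0.1 FPKM in 3 libraries only, those of DT_5d, so it entered the test through the group in which it was high, and its calls (log2 fold change 1.64 on scaled values, adjusted p 0.0111) are given as a description. Its fitted fold change depended on the pseudocount.

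TCONS_00006939 and TCONS_00006938 had their highest group mean in DT_5d too, at 3.73 and 2.86 scaled FPKM. TCONS_00006939 was at 2.37 to 5.92 scaled FPKM in DT_5d and at 1.16 to 2.11 in C_5d. It was listed at 0 in 1 of 2 DT_1d and 2 of 3 C_1d libraries, and it rose from DT_1d to DT_5d (log2 fold change 3.87, adjusted p 0.0426 on deposited and 4.16, adjusted p 0.00916 on scaled values). The other DT_1d library was at 0.208 FPKM, near the pseudocount of 0.1, so the size of this fold change also depended on the pseudocount. TCONS_00006938 was at 2.22 to 3.52 scaled FPKM in DT_5d and at 1.44 to 2.23 in C_5d, overlapping, and was not called there (0.66, adjusted p 0.735). TCONS_00006937 amounted to 0.277 ± 0.0777 (SD, n = 3) of the FPKM of Grd in DT_5d and 0.129 ± 0.0264 in C_5d. Elsewhere the group means of this ratio were 0.103 to 0.174. The DT_5d ratio was 2.12 times that of C_5d without overlap (exact permutation p = 0.1, two-sided, the smallest possible).

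**Figure D4:**
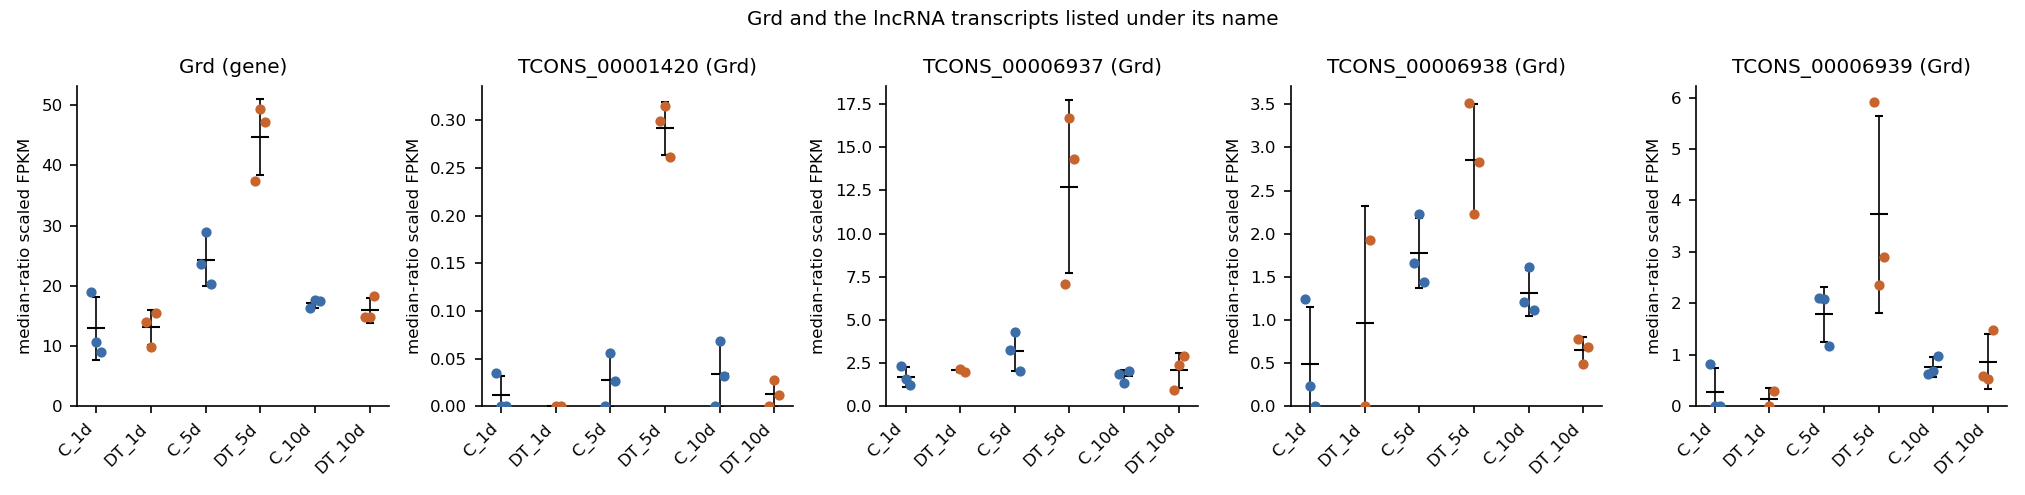
Scaled FPKM of Grd and of the 4 lncRNA transcripts listed under its name in each library (points; blue C, orange DT; 3 per group, 2 in DT_1d for the lncRNAs), with the mean and SD in black. Grd (44.7) and TCONS_00006937 (12.7) had their highest group mean in DT_5d, as did TCONS_00006938 and TCONS_00006939. TCONS_00001420 did too, but it reached the minimum for testing only through DT_5d.

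The lncRNAs of the other genes were low. TCONS_00080901, listed under pHCl, was above 0 in 17 of 17 libraries at 0.144 to 0.889 FPKM. Its ratio to pHCl was 0.0976 ± 0.0168 (SD, n = 3) in DT_10d and 0.0499 ± 0.0267 in C_10d, without overlap between the 3 libraries of either group (exact permutation p = 0.1, two-sided, the smallest possible). DT_10d includes replicate 1, whose lncRNA values may belong to DT_1d. TCONS_00083135, also under pHCl, was above 0 in 13 of 17 libraries and did not exceed 0.201 FPKM. TCONS_00075437, under GluCl, was above 0 in 3 of 17 libraries with a highest value of 0.209 FPKM, and was the 1 member that did not pass the minimum for testing. The GluCl gene itself was above 0 in every library.

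At 1 d no member was called by limma, against 0.0146% of all features on deposited and 0.0583% on scaled values. On deposited values 1 member was lower in DT_1d at an unadjusted p under 0.05, against 22.7% of all features. On scaled values 0 members reached that p, against 5.35% of all features higher and 4.22% lower. GluCl had the lowest fold change of the 5 genes there too. It was at 2.82, 3.14 and 3.96 FPKM in DT_1d and at 9.12, 6.37 and 5.06 FPKM in C_1d, without overlap, and 38.5% of all features lay wholly lower in DT_1d on these values. The log2 fold change was -1.0 (SE 0.33, 95% interval -1.69 to -0.31, adjusted p 0.212), where the median over all genes was -0.67. On scaled values GluCl was at 5.24, 4.91 and 5.56 in DT_1d and at 5.53, 7.67 and 6.57 in C_1d, which overlap by a small margin (log2 fold change -0.32, adjusted p 0.529). The pHCl gene, in contrast, was higher in DT_1d on scaled values, at 7.55, 7.03 and 6.94 against 5.70, 5.01 and 6.49 in C_1d without overlap (0.33, adjusted p 0.539), where 7.9% of all features lay wholly higher, and at -0.37 (adjusted p 0.387) on deposited values.

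At 10 d no member was called either, against 0.524% of all features on deposited and 0.699% on scaled values, and 0 members had an unadjusted p under 0.05 on either scale. Of all features 8.87% were higher and 1.16% lower at that p on deposited values, and 7.13% and 4.89% on scaled values. The 5 genes had log2 fold changes between 0.02 and 0.46 on deposited values, where the median gene was higher by 0.29, and between -0.28 and 0.17 on scaled values. GluCl was at 10.0, 7.91 and 10.7 FPKM in DT_10d and at 8.13, 7.61 and 10.3 FPKM in C_10d, with overlap (0.14, 95% interval -0.55 to 0.82, adjusted p 0.879). Grd was at 21.5, 22.5 and 28.2 FPKM in DT_10d and at 21.0, 16.7 and 25.8 FPKM in C_10d, also with overlap (0.20, adjusted p 0.855). TCONS_00006938, an lncRNA of Grd, was at 0.743 to 1.15 FPKM in DT_10d and at 1.53 to 1.66 FPKM in C_10d. It was the 1 member wholly lower on either scale (against 2.3% of all features on deposited and 10% on scaled values). Its log2 fold change was -0.66 (SE 0.88, adjusted p 0.787). On deposited values 1 member, TCONS_00083135, lay wholly higher in DT_10d, against 21.5% of all features. It was at 0.0685 to 0.134 FPKM in DT_10d and at 0.0289 to 0.0538 FPKM in C_10d.

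Over all ages together, with age in the fit, GluCl had the lowest log2 fold change of the 5 genes, -0.79 (SE 0.24, adjusted p 0.22) on deposited and -0.41 (SE 0.11, 95% interval -0.64 to -0.18, adjusted p 0.0897) on scaled values. No member was called by limma, against 0% of all features on deposited and 0.124% on scaled values. On deposited values 1 member, GluCl, was lower in DT at an unadjusted p under 0.05, against 17% of all features. On scaled values GluCl was again lower at that p, against 7.01% of all features, and 1 member was higher, against 9.65%. Among all genes on deposited values, 2089 reached an unadjusted p under 0.05 with a lower level in DT and 58 with a higher one. The planned test of whether the effect differed between 10 and 1 d gave 1.14 for GluCl on deposited (adjusted p 0.152) and 0.15 on scaled values (adjusted p 0.8). No member was called in it, against 0.124% of all features on deposited and 0.269% on scaled values. On deposited values 2 members had a positive value at an unadjusted p under 0.05, against 29.1% of all features. On scaled values 1 had a negative value at that p, against 6.1%. The same test between 10 and 5 d, added after seeing the data, gave 1.64 (adjusted p 0.0847) and 0.58 (adjusted p 0.321) for GluCl, and -0.99 (adjusted p 0.289) for Grd on scaled values. No member was called, against 0.0583% of all features on deposited and 0.0874% on scaled values. At an unadjusted p under 0.05, 3 members were positive and 1 negative on deposited values, against 35.9% and 0.386% of all features. On scaled values 1 was positive and 4 were negative at that p, against 7.76% and 5.65%. As TCONS_00001420 was among the members tested, both sets of counts are a description only. In this test GluCl was called on deposited values without C_5d replicate 2 (1.94, adjusted p 0.0382).

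Most members were higher in DT_10d than in DT_1d on deposited values. The 6 called were GluCl (1.504, adjusted p 0.00184), Grd (1.56, adjusted p 0.00397), LCCH3 (1.19, adjusted p 0.0159), Hiscl1 (1.21, adjusted p 0.0162) and the lncRNAs TCONS_00006939 and TCONS_00080901. In the same comparison 52.4% of all features were called higher and the median gene was higher by 1.20, so the share of members called (6 of 11) was near the background. On scaled values no member was called by limma, against 14.1% of all features. An unadjusted p under 0.05 was reached by pHCl, lower, and by TCONS_00006939, higher, against 18.5% of all features lower and 23% higher. There LCCH3 was at -0.03 and Hiscl1 at 0.00 on the log2 scale, with the sign of LCCH3 turned. The pHCl gene was at 0.75 (adjusted p 0.0411) on deposited and at -0.50 (adjusted p 0.0458) on scaled values, each within the fold limit, so that its direction also followed the scaling.

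From DT_5d to DT_10d, a comparison added after seeing the data, GluCl and Grd had opposite signs on both scales. GluCl was higher in DT_10d by 1.68 (SE 0.33, adjusted p 0.00674) on deposited and by 0.62 (SE 0.16, adjusted p 0.0319) on scaled values, the latter below the fold limit. Grd was at -0.40 (adjusted p 0.396) on deposited values and fell by 1.47 on the log2 scale (SE 0.23, adjusted p 0.00217) on scaled values. On deposited values 3 members were called higher (GluCl, LCCH3 and Hiscl1), against 41.4% of all features, and TCONS_00006937 lower, against 0.721%. On scaled values Grd and TCONS_00006937, listed under Grd, were called lower, against 2.35% of all features, and none higher, against 1.49%. TCONS_00001420 was called lower on both scales too, but is left out of these counts because its entry through DT_5d fixed the direction. Between C_5d and C_10d no member was called by limma, against 0.211% of all features on deposited and 0.284% on scaled values. On deposited values 0 members had an unadjusted p under 0.05, against 1.77% of all features higher and 2.63% lower. On scaled values 1 was higher in C_10d at that p, against 3.69%. There Grd was at -0.49 on both scales (adjusted p 1 and 0.578).

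Among genes that make, clear or sense these transmitters, 8 were found by name and tested. They were the GABA transporters Gat-1B and Gat-a, the glutamate transporter Eaat-2, glutamine synthetase GlnS, the metabotropic receptor mGlutR1, the ionotropic glutamate receptor genes Glurb and Nmdar1, and Amel_8916, a further subunit of the cysteine-loop family whose gene begins 4300 bp past the end of LCCH3. None of the 8 was called between DT and C at any age on either scale. At 5 d all 8 were lower in DT_5d on deposited values (median log2 fold change -1.13, against -0.73 for all genes) and 7 of 8 on scaled values (median -0.40, where that of all genes was close to 0). The pair with the largest changes was Gat-a and Nmdar1. Gat-a was at 4.01 ± 0.217 scaled FPKM in DT_5d and 7.78 ± 2.31 in C_5d (SD, n = 3), with a log2 fold change of -0.90 (adjusted p 0.0409) below the fold limit. Nmdar1 was at 4.08 ± 0.628 and 7.31 ± 2.27 (-0.79, adjusted p 0.069). From DT_1d to DT_10d, Amel_8916 was the 1 of the 8 called on scaled values (1.02, adjusted p 0.00753), and 6 were called on deposited values. Of the nicotinic acetylcholine receptor subunits, which belong to the same superfamily and pass cations, 10 of 11 were found. Between DT and C, 0 were called at 1 or 5 d, and 1, nAChRa9, was called higher at 10 d on either scale.

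The genes most like each member over the 18 libraries were sought among 7900 genes with a mean of at least 1 FPKM, by the root mean square difference of centred, scaled log2 values. Genes chosen in this way follow the member over the groups by construction, so their group means are a description only. For GluCl they were LOC410671 (0.17) and Fstl5 (0.17), against a median of 0.44 over all genes. LOC410671 had its lowest group mean in DT_5d as well (1.26 scaled FPKM, against 2.22 in C_5d). For Grd they were LOC412458 (0.30) and LOC552193 (0.32), against a median of 0.75, and both had their highest group mean in DT_5d (341 and 113 scaled FPKM). No gene came as close to Grd as the nearest genes did to the other members, but this difference grows with a gene's own spread. The SD of scaled log2 values over the libraries was 0.70 for Grd and 0.23 to 0.33 for the other gene members. For pHCl the nearest genes were LOC411175 (0.16) and LOC413060 (0.17). For LCCH3 they were LOC410134 (0.15) and LOC409771 (0.16), and for Hiscl1 LOC726643 (0.11) and LOC100578423 (0.14). Among the members themselves the closest pair was LCCH3 and Hiscl1 (0.24), and the farthest was Grd and GluCl (0.89).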

How the data were processed

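RNA from pooled brains was made into libraries with a NEBNext Ultra RNA kit, which does not mark the strand, and sequenced as paired ends. Per the study's methods, reads were aligned to the Amel_HAv3.1 genome with Hisat2, assembled with StringTie and Cuffmerge, filtered with Cuffcompare, and quantified with Cuffdiff. The submitters' processing notes name CASAVA and StringTie without versions. The deposited values are FPKM as the authors computed them, 1 column per library, and the files hold 24419 mRNA rows of 9939 genes, the rows of a gene being equal. No test used counts, and depth was not recovered. Sequences were not used here.

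Tests used limma 3.58.1 (R 4.3.3) with a trended prior on log2(FPKM + 0.1), for 9352 genes and 4378 lncRNA transcripts with at least 0.1 FPKM in at least 3 libraries, all 6 groups sharing 1 estimate of the spread. P-values were adjusted by Benjamini-Hochberg over these 13730 features, and a feature was called at an adjusted p under 0.05 with a log2 fold change beyond 1 in size. The script was tested on simulated data. The members and gene lists were chosen with earlier results of these data known. The rule for naming took every member, for each gene member the 2 genes most like it, and of the lists the genes called or else the 2 with the largest change. Alternatives were pseudocounts of 1 and 0.01, no filter, median-ratio scaling, quantile normalization, adjustment over genes only, no fold limit, a replicate block, fits of the compared libraries alone, and leaving out each library. Comparisons of 5 with 10 d, interactions with 5 d and the scaled fit of the compared libraries alone were added after seeing the data. The ratios between features and their permutation tests were not planned either. Marker symbols not found by name were left out.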

Additional observations from a re-analysis of the deposited data

How the results depend on the processing

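Counts of members called changed with the scaling, with other settings and with single libraries. The counts here are over all 11 members tested, TCONS_00001420 included. Between DT_5d and C_5d, where 0 were called, median-ratio scaling gave 2, quantile normalization 1 and adjustment over genes only 1, and 0 to 3 were called when 1 library was left out, on either scale. From C_1d, leaving out 1 library gave 0 to 4 at 5 d and 0 to 3 at 10 d, against 0. From DT_1d to DT_5d, where 4 were called, pseudocounts of 1 and 0.01, no filter and the compared libraries alone gave 2 each, adjustment over genes only gave 1, and leaving out 1 library gave 0 to 5. From DT_1d to DT_10d, where 6 were called, a pseudocount of 1 gave 3, and median-ratio scaling, quantile normalization and the scaled fit of the compared libraries alone gave 0, with 0 to 6 when 1 library was left out. From DT_5d to DT_10d, where 5 were called, a pseudocount of 1, median-ratio scaling, quantile normalization and adjustment over genes only gave 3 each, with 2 to 4 when 1 library was left out. The interaction of 10 against 5 d gave 0 to 1. Where a count rose or fell, the cause was not tested, beyond the smaller number of features or libraries that some alternatives hold by construction.

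Same-numbered C and DT libraries did not deviate together at every age (correlations of deviations from group means -0.136 to 0.255 over 9 pairs). At 5 d the correlations were 0.154, -0.0306 and 0.255 for replicates 1, 2 and 3. The largest with a DT library of another number were -0.0117, 0.251 and 0.0311. The replicate number was not taken as a pairing. With it as a replicate block, 2 members were called at 5 d (GluCl and TCONS_00001420), and 1 with scaling, 1 from DT_1d to DT_5d, 0 with scaling from DT_1d to DT_10d and 3 with scaling from DT_5d to DT_10d.

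Signs turned in DT_10d against DT_1d. LCCH3 went from 1.19 to -0.0288 with median-ratio scaling, with the block and scaling and in the scaled fit of the compared libraries alone, and to -0.11 with quantile normalization. Hiscl1 went from 1.21 to -0.0869 with quantile normalization. Leaving out 1 library on either scale gave LCCH3 values of -0.144 to 1.34, Hiscl1 values of -0.0693 to 1.34 and TCONS_00080901 values of -0.183 to 1.77 there, and Hiscl1 values of -0.00224 to 1.15 from DT_5d to DT_10d. Among member fold changes under all alternatives, 3087 kept their direction and their side of the threshold, 47 gained a call and 130 lost one. A sign turned in 572 that were called neither way and in the 13 covered above.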
